A study of Mus musculus with 14 samples.

Results

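The genes of the constitutive proteasome were followed through 14 libraries of transformed mouse embryonic fibroblasts. The rule for them uses gene names, and it was set with earlier results of these data known. After the Ensembl identifiers of the deposited table had been joined to mouse symbols, the stems Psma, Psmb, Psmc, Psmd or Psme followed by a digit matched 49 genes. The 3 immunoproteasome genes Psmb8, Psmb9 and Psmb10 and 4 pseudogenes were then left out, so that 42 of the 52636 genes in the table remained. By role these were 8 genes for alpha subunits of the core (Psma1 to Psma8), 8 for beta subunits of the core (Psmb1 to Psmb7 and Psmb11), 6 for ATPases of the base (Psmc1 to Psmc6), 3 for other base subunits (Psmd1, Psmd2 and Psmd4), 8 for lid subunits, 3 for assembly chaperones (Psmd5, Psmd9 and Psmd10) and 5 for activators (Psme1, Psme2, Psme2b, Psme3 and Psme4). The last, Psmc3ip, fits the name but encodes a recombination protein of meiosis, so it is no proteasome subunit. It is still counted with the proteasome genes in the totals and medians over all of them below. These include the rises on average and in TIN, and the lower counts against wild type in each mutant.

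The proteasome degrades proteins that carry ubiquitin chains. Its barrel-shaped core is built of stacked rings of alpha and beta subunits, and the catalytic sites for cleavage of peptide bonds belong to the beta subunits of Psmb5, Psmb6 and Psmb7. A regulatory particle caps the core: its base holds the ring of ATPases that unfold the substrate, and its lid removes the ubiquitin chain. Other caps, the activators, open the core without ubiquitin, and interferon signalling replaces the catalytic beta subunits with those of the immunoproteasome. The factor NRF1, encoded by Nfe2l1, raises transcription of the subunit genes together when proteasome activity is low.

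All cells carried naked mole rat (NMR) TRF1, a protein that binds telomeric DNA, in place of the mouse form. The series held 3 mutants of it: GLAD, with Glu69Lys, Val70Ala and Ala75Thr; TIN, with Ala105Thr; and the double mutant, with all of these. The 7 groups were the GLAD mutant in hypoxia (1% oxygen) and in normoxia (atmospheric oxygen), the TIN mutant in hypoxia and in normoxia, the double mutant in hypoxia and in normoxia, and wild-type NMR TRF1 in normoxia. Each group had 2 libraries, A and B. Wild type in hypoxia was not analysed here. The labels do not give the promoter or vector behind NMR TRF1, and do not say whether each form is 1 clone, so a mutant form cannot be told apart from the line that carries it. They also do not say that A and B were separate cultures, so the spread behind the p-values is that among the sequenced libraries and may be technical. The word Mouse appears in the table's column names of the wild-type group, whereas their titles and genotype say wild-type NMR TRF1, and they are called wild type here on that basis.

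The values are CPM, read counts brought to a common total per library, scaled here between libraries by TMM (trimmed mean of M values). Depth estimated from the spacing of the lowest values was 11916680 to 15023478 reads a library, at which 3 reads equal 0.200 to 0.252 CPM. At that depth 0 to 20.7% of the low values of a library were within 0.1 of whole reads. The depth, and the read levels and chi-squares taken from it, are therefore rough. Differences are log2 differences of CPM plus 0.5, fitted with limma over the 16205 genes that reached 1 CPM in 2 libraries. A gene is called, and said to have risen or fallen, where the p adjusted by Benjamini-Hochberg over all these genes is under 0.05. The 6 genes of a hypoxia list, among them Car9 and Vegfa, rose in each mutant, and their summed level was 1871 and 1923 CPM in GLAD hypoxia against 205 and 210.2 CPM in GLAD normoxia, 1508 and 1523 CPM in TIN hypoxia against 183 and 187 CPM in TIN normoxia, and 1914 and 2070.0 CPM in double hypoxia against 377 and 388 CPM in double normoxia. Double normoxia was thus above the 178 and 178 CPM of wild type, and all 6 genes were higher there than in wild type; the hypoxia effect was lower in the double mutant than in GLAD for 4 of the 6. Reads at the mouse gene Terf1, which may include reads of the NMR form, came to 93.1 and 86.9 CPM in GLAD hypoxia, 113 and 114 CPM in TIN hypoxia and 97.5 and 91.3 CPM in double hypoxia, against 148 and 148 CPM, 186 and 179.7 CPM and 128 and 137 CPM in normoxia of the same mutants and 105 and 87.3 CPM in wild type. Of 8 fibroblast markers 7 reached 1 CPM and Thy1 did not. The markers Epcam, Cdh1, Cldn4, Pecam1, Tie1, Ptprc, Adgre1, Adipoq and Plin1 of epithelial, endothelial, myeloid and fat cells were below 1 CPM in all 14 libraries. Other genes of the same lists were detected, Krt19 at up to 61.1 CPM and Fabp4 at up to 59.3 CPM. Cd68 reached 44.3 CPM and Csf1r 29.0 CPM. The 4 neural markers summed to 216 to 434 CPM a library. Changes of the marker lists are given with the hypoxia results.

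The wild-type libraries stood apart from each other more than any other pair. Over the genes well covered, their CPM, turned into reads by the estimated depth, differed by a chi-square of 20.4 per degree of freedom, against 1.46 to 5.09 in the 6 mutant groups. Among the proteasome genes 37 of 40 were higher in wild-type library B than in A, with a median log2 gap of 0.27. Counts and medians against wild type are therefore given also without one or the other, and a call on a named proteasome gene that ended without either is noted. The fit shares 1 spread per gene over all 7 groups. Standard errors and p-values against wild type may thus be too small for this pair. In fits on the compared groups only, 23 in place of 29 proteasome genes were lower than wild type in GLAD. In TIN 9 in place of 16 were lower, and in the double mutant 31 in place of 34.

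Of the 42 genes, 40 passed the filter on low values. Psma8, whose product replaces an alpha subunit in the testis, was at 0 in every library. A 0 does not exclude a level under that of 3 reads, 0.200 to 0.252 CPM at this depth. Psmb11, the beta subunit of the thymus, was highest in wild type, with 0.202 and 0.462 CPM, which is near the level of 3 reads. The group means of the 40 tested genes spanned 1.36-fold to 3.62-fold over the 7 groups, with a median of 1.96-fold. The widest was Psmb3, a beta subunit, with a mean of 43.6 CPM in double hypoxia and 158 CPM in wild type, and the narrowest was the chaperone gene Psmd9.

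Most of these 40 genes were highest in wild type or TIN normoxia and lowest in hypoxia. Neither this ranking nor the deviations that follow were computed over all genes, so they may not be particular to these. The highest mean lay in wild type for 23 genes, in TIN normoxia for 11, in TIN hypoxia for 4 and in GLAD normoxia for 2. The lowest lay in GLAD hypoxia for 19 and in double hypoxia for 13. As a median over the 40 genes, the log2 deviation from a gene's own mean was -0.38 and -0.41 in GLAD hypoxia against -0.02 and -0.02 in GLAD normoxia. It was 0.17 and 0.14 in TIN hypoxia against 0.29 and 0.38 in TIN normoxia. It was -0.36 and -0.35 in double hypoxia against -0.11 and -0.04 in double normoxia, while wild type had 0.30 and 0.52. In every mutant both hypoxia libraries were thus below both normoxia libraries, yet the TIN hypoxia libraries were above normoxia of the other mutants.

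**Figure D1:**
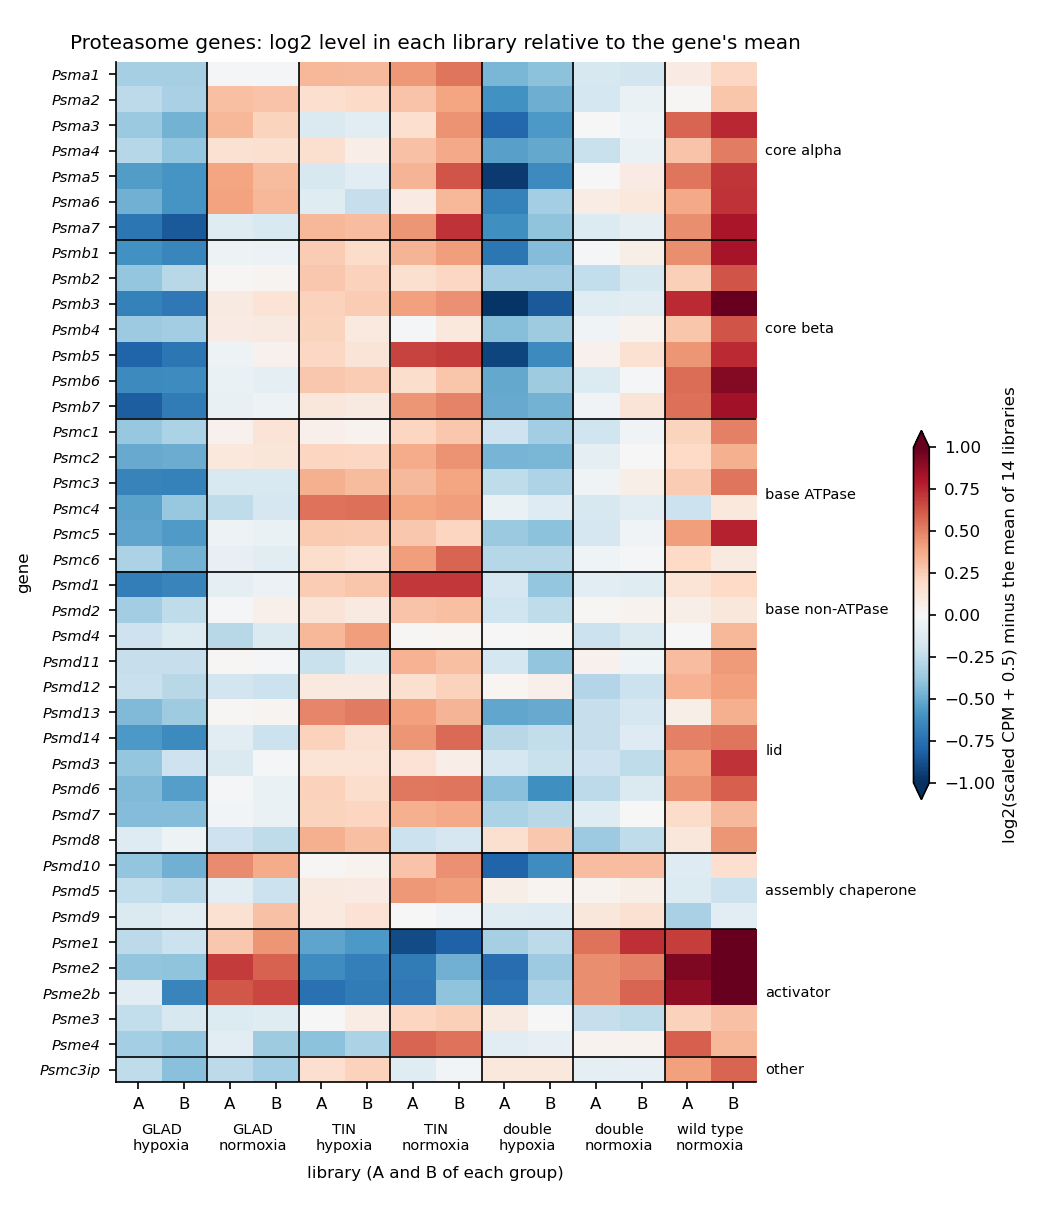
The log2 level of each of 40 proteasome genes in each of 14 libraries, as the deviation from the gene's mean over all libraries (red higher, blue lower, colours end at -1 and 1). GLAD and double hypoxia are blue in nearly all roles, and wild type is red for most genes outside the chaperones; Psme1 and Psme2 are blue in TIN normoxia, where most core genes are red.

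Averaged over the 3 mutants, 33 of the 40 tested genes fell in hypoxia and 3 rose. Among all genes tested, 37% fell and 30.4% rose. The median log2 difference of the proteasome genes was -0.30, against -0.04 for all genes. Of the 36 calls, 34 held when any 1 library was left out, the exceptions being Psmb2 (between -0.16 and -0.12) and Psmc3ip. By role, 7 of 7 alpha core genes fell (median -0.43), as did 7 of 7 beta core genes (median -0.44), 5 of 6 ATPases, 2 of 3 other base genes, 5 of 8 lid genes, 3 of 3 chaperones and 4 of 5 activators. The rises were in Psmd4, Psmd8 and Psmc3ip. Within a role the average log2 difference ran -0.80 to -0.25 for alpha genes, -0.72 to -0.14 for beta genes, -0.41 to -0.02 for ATPases, -0.37 to 0.40 for lid genes and -0.74 to 0.01 for activators. The genes not called were the ATPase Psmc4, the lid genes Psmd3 and Psmd12, and the activator Psme3. In bulk RNA, fewer cells that express a gene and less of its RNA per cell cannot be told apart.

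Markers of cell types moved with hypoxia as well, next to the 30.4% of all genes that rose and the 37% that fell on average. On average over the mutants, 6 of 6 muscle markers rose (median 0.91), as did the 2 tested of 6 epithelial markers (median 2.12), the 2 tested of 4 myeloid markers (median 1.12) and the 1 tested of 4 endothelial markers, Kdr (0.40). Of 7 tested fibroblast markers 5 fell and 0 rose (median -0.43), of 4 neural markers 2 rose and 1 fell, and of the 2 tested of 4 fat cell markers 1 fell and 0 rose. The muscle markers summed to 353 and 383 CPM in GLAD hypoxia against 261 and 268 CPM in GLAD normoxia, 289 and 289.7 CPM in TIN hypoxia against 109 and 119 CPM in TIN normoxia, and 91.5 and 121 CPM in double hypoxia against 86.8 and 98.0 CPM in double normoxia, where they overlapped. Most of the epithelial sum was the keratin Krt19, with 30.9 and 34.9 CPM in GLAD hypoxia against 2.4979 and 2.30 CPM in GLAD normoxia, 58.3 and 61.1 CPM in TIN hypoxia against 8.67 and 7.42 CPM in TIN normoxia, and 13.9 and 14.7 CPM in double hypoxia against 0.491 and 0.1 CPM in double normoxia. Cd68, a lysosomal protein of macrophages, had 44.3 and 43.0 CPM in GLAD hypoxia against 16.2 and 17.3 CPM in GLAD normoxia, 41.4 and 39.7 CPM in TIN hypoxia against 7.03 and 7.32 CPM in TIN normoxia, and 41.4 and 39.2 CPM in double hypoxia against 9.37 and 11.8 CPM in double normoxia, while the leukocyte marker Ptprc and the macrophage marker Adgre1 were near 0 throughout. The part of these genes in the proteasome differences was not tested.

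Within single mutants the counts differed. In the GLAD mutant 32 of 40 fell (26.1% of all genes) and 0 rose (21.9% of all genes), by limma with adjusted p; at an unadjusted p under 0.05 the count of rises was also 0. In the TIN mutant 18 fell (28.5% of all genes) and 4 rose (25.5% of all genes). In the double mutant 27 fell (30.2% of all genes) and 3 rose (25.8% of all genes). The TIN count rests on few libraries: it was 11 fallen without TIN normoxia B and likewise without TIN hypoxia B, and 2 risen without TIN normoxia A, TIN hypoxia A or TIN hypoxia B. In the double mutant 5 rose when either wild-type library was left out of the shared estimate of spread. The median log2 differences were -0.45 in GLAD, -0.17 in TIN and -0.29 in the double mutant, against -0.04, -0.01 and -0.05 over all genes.

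**Figure D2:**
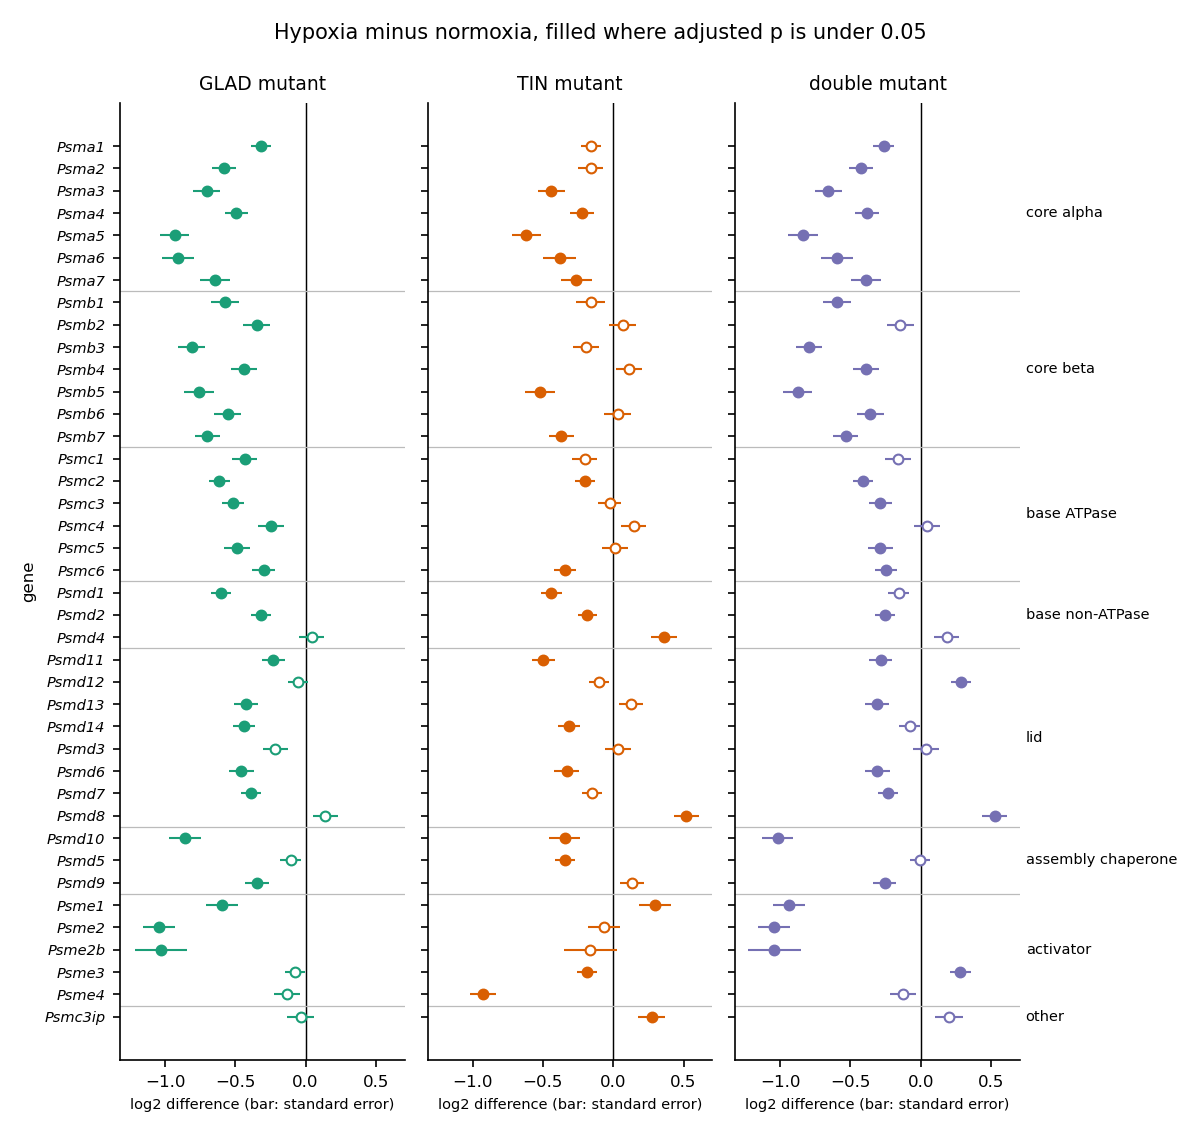
Log2 difference, hypoxia minus normoxia, of each tested proteasome gene in each mutant, with its standard error; filled points have an adjusted p under 0.05. Most filled points lie left of 0 in the GLAD and double mutants, Psmd8 lies right of 0 in all 3, and Psme1 and Psme4 take different positions in TIN than in the other mutants.

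Among alpha subunits Psma5, a structural member of the outer ring, fell most on average. It had 57.6 and 56.3 CPM in GLAD hypoxia against 112 and 106 CPM in GLAD normoxia. It had 75.9 and 79.0 CPM in TIN hypoxia against 108 and 132 CPM in TIN normoxia, and 43.7 and 54.5 CPM in double hypoxia against 85.1 and 90.3 CPM in double normoxia. No hypoxia library reached a normoxia library of its own mutant. The log2 difference was -0.80 (standard error 0.06, adjusted p = 1.2e-09) on average, and -0.93, -0.62 and -0.84 in GLAD, TIN and double. Psma7, another alpha subunit, had 62.8 and 57.9 CPM in GLAD hypoxia against 95.3 and 93.5 CPM in GLAD normoxia. It had 131 and 129 CPM in TIN hypoxia against 141 and 171 CPM in TIN normoxia, and 67.8 and 78.4 CPM in double hypoxia against 94.2 and 97.4 CPM in double normoxia. These groups did not overlap either. Its average log2 difference was -0.43 (adjusted p = 5.8e-06), but the TIN difference of -0.26 (adjusted p = 0.0471) was lost without 9 of the 14 libraries in turn, where it ran between -0.40 and -0.12.

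Of the 3 catalytic subunits, Psmb5 and Psmb7 fell in each mutant and Psmb6 in GLAD and in the double mutant. Psmb5, which carries the chymotrypsin-like site, had 31.1 and 33.0 CPM in GLAD hypoxia against 52.8 and 56.2 CPM in GLAD normoxia. It had 63.0 and 59.8 CPM in TIN hypoxia against 87.6 and 89.0 CPM in TIN normoxia, and 28.7 and 34.98 CPM in double hypoxia against 56.4 and 60.7 CPM in double normoxia. It was lower in hypoxia in all 3 mutants with no overlap, by log2 differences of -0.76, -0.52 and -0.88 in GLAD, TIN and double, and -0.72 (standard error 0.06, adjusted p = 5.2e-09) on average. Psmb7, the trypsin-like subunit, had 66.8 and 72.5 CPM in GLAD hypoxia against 112 and 114 CPM in GLAD normoxia. It had 128 and 126 CPM in TIN hypoxia against 161 and 167 CPM in TIN normoxia, and 83.3 and 85.2 CPM in double hypoxia against 115 and 129.5 CPM in double normoxia. Its hypoxia libraries were again all below normoxia of the same mutant, with an average log2 difference of -0.53 (adjusted p = 3.2e-08).

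Psmb6, the caspase-like subunit, had 84.3 and 84.9 CPM in GLAD hypoxia against 125 and 123 CPM in GLAD normoxia, and 92.0 and 103 CPM in double hypoxia against 119.9 and 129.9 CPM in double normoxia. In TIN it had 158 and 157 CPM in hypoxia against 148 and 159.8 CPM in normoxia, and these overlapped. The log2 differences were -0.55 (adjusted p = 0.000111) in GLAD, 0.03 (adjusted p = 0.79) in TIN and -0.36 (adjusted p = 0.00375) in the double mutant, where the call was lost without double hypoxia A (between -0.44 and -0.28 over the libraries left out). The hypoxia effect was higher in TIN than in GLAD by 0.59 (standard error 0.14, adjusted p = 0.00298). Psmb3, a structural beta subunit, had 51.3 and 49.9 CPM in GLAD hypoxia against 87.7 and 90.5 CPM in GLAD normoxia and 41.5 and 45.8 CPM in double hypoxia against 75.8 and 76.1 CPM in double normoxia. In TIN it had 96.4 and 98.4 CPM in hypoxia against 109.5 and 113 CPM in normoxia, a difference of -0.19 (adjusted p = 0.0946) that was not called although the libraries did not overlap. Its hypoxia effect in TIN exceeded that in GLAD by 0.62 (adjusted p = 0.00191) and was above that of the double mutant, whose effect was lower by a log2 difference of -0.60 (adjusted p = 0.00155).

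**Figure D3:**
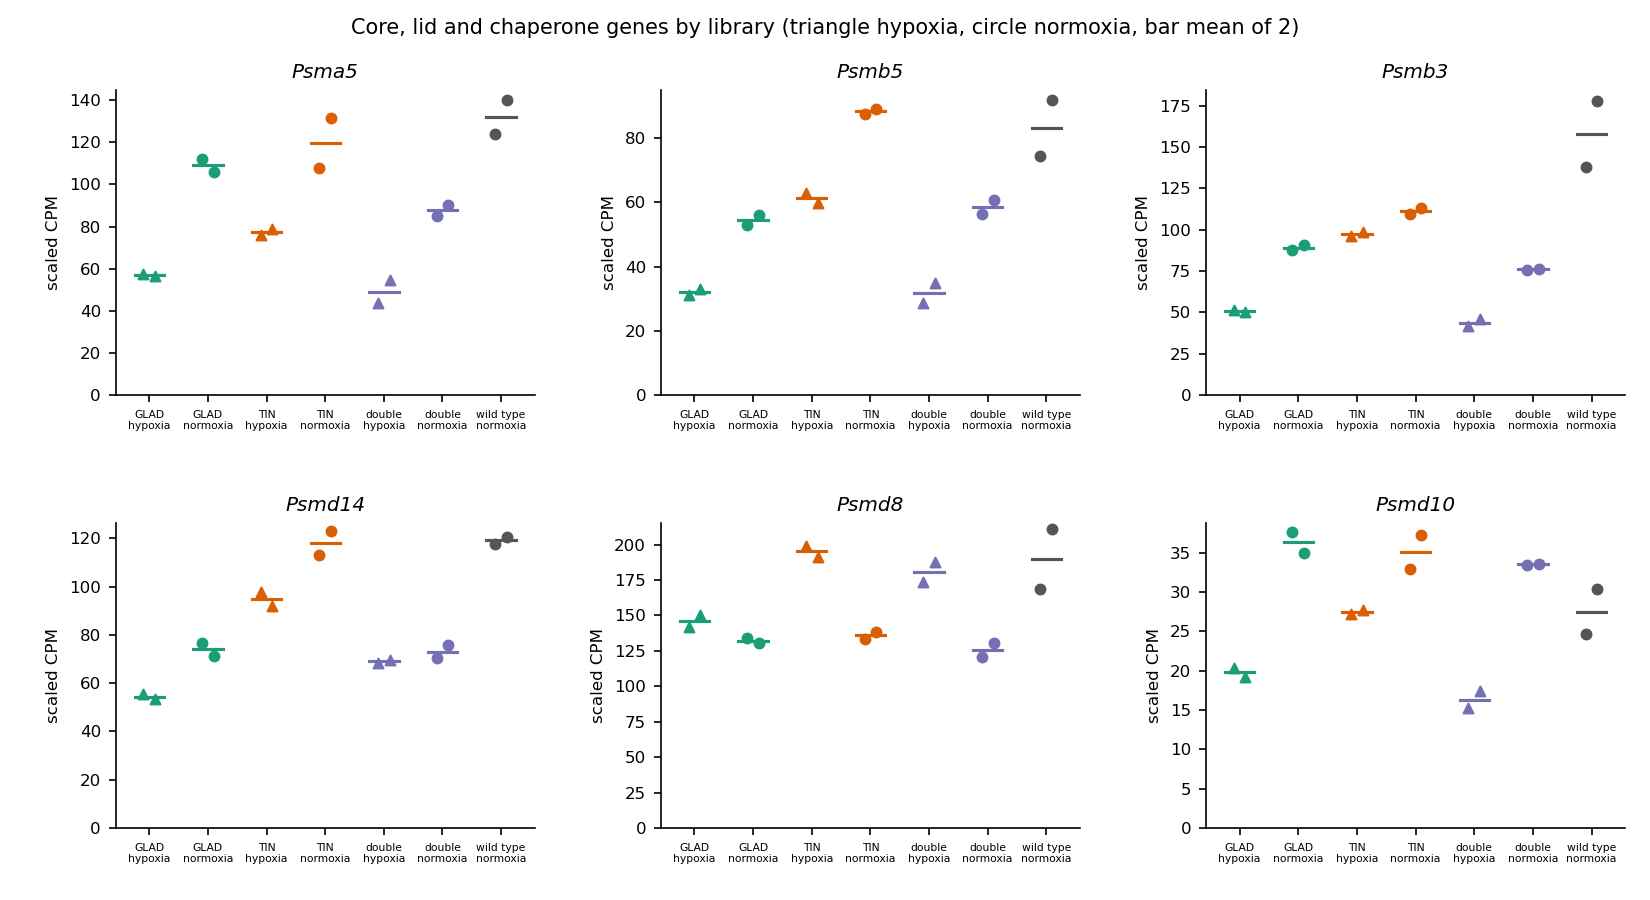
Scaled CPM of 6 core, lid and chaperone genes in each library (triangles hypoxia, circles normoxia, bars the mean of 2). Psma5, Psmb5 and Psmd10 triangles lie below the circles of the same mutant throughout, while Psmd8 triangles lie above them.

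In the base, the ATPase gene Psmc1 had 98.8 and 103 CPM in GLAD hypoxia against 132 and 141 CPM in GLAD normoxia. It had 133 and 132 CPM in TIN hypoxia against 149.6 and 155 CPM in TIN normoxia, and 111 and 101 CPM in double hypoxia against 112 and 126 CPM in double normoxia. Each hypoxia pair was below its normoxia pair, but only the GLAD difference of -0.43 (adjusted p = 0.000625) was called, next to -0.20 (adjusted p = 0.0664) in TIN and -0.16 (adjusted p = 0.134) in the double mutant. All 6 ATPases fell in GLAD (26.1% of all genes), 2 in TIN (28.5% of all genes) and 4 in the double mutant (30.2% of all genes). Psmd4, whose product binds ubiquitin chains for the base, went the other way in TIN. It had 226 and 240.4 CPM in TIN hypoxia against 181 and 182 CPM in TIN normoxia, 156 and 163 CPM in GLAD hypoxia against 147 and 162 CPM in GLAD normoxia, and 179 and 181 CPM in double hypoxia against 155 and 162 CPM in double normoxia. Both TIN hypoxia libraries were higher, the GLAD libraries overlapped, and the double hypoxia libraries were higher by a margin short of the test. The log2 differences were 0.36 (adjusted p = 0.00231) in TIN, 0.04 (adjusted p = 0.721) in GLAD and 0.18 (adjusted p = 0.091) in the double mutant; the TIN call was lost when the trends of the differences with transcript length and GC content were removed.

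Psmd1, the large scaffold subunit of the base, differed by mutant. It had 134 and 136 CPM in GLAD hypoxia against 202 and 208 CPM in GLAD normoxia, and 192 and 165 CPM in double hypoxia against 199 and 199 CPM in double normoxia. In TIN it had 258 and 261 CPM in hypoxia against 352 and 353 CPM in normoxia, the highest pair of the series. No pair overlapped, and the fall was -0.60 (adjusted p = 2.6e-06) in GLAD and -0.44 (adjusted p = 6.5e-05) in TIN, with -0.16 (adjusted p = 0.0776) in the double mutant. The hypoxia effect in the double mutant was higher than in GLAD by 0.44 (standard error 0.10, adjusted p = 0.00755), the only one of the 5 called differences between those mutants that held without any 1 library.

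Among lid genes, Psmd14, the deubiquitinase that cuts ubiquitin chains off the substrate, had 55.6 and 53.2 CPM in GLAD hypoxia against 76.8 and 71.2 CPM in GLAD normoxia. It had 97.5 and 92.1 CPM in TIN hypoxia against 113 and 123 CPM in TIN normoxia, and 68.4 and 69.7 CPM in double hypoxia against 70.5 and 75.6 CPM in double normoxia. No pair overlapped. The GLAD difference of -0.44 (adjusted p = 0.000129) and the TIN difference of -0.31 (adjusted p = 0.00223) were falls, while the double mutant had -0.08 (adjusted p = 0.397). Psmd11, a structural lid subunit, had 87.5 and 87.5 CPM in GLAD hypoxia against 104 and 102 CPM in GLAD normoxia. It had 87.9 and 94.3 CPM in TIN hypoxia against 131 and 127 CPM in TIN normoxia, and 90.8 and 77.9 CPM in double hypoxia against 106 and 99.5 CPM in double normoxia. It fell in all 3 mutants with no overlap, by -0.23, -0.50 and -0.28, and by a log2 average of -0.34 (adjusted p = 4.1e-06). The GLAD call was lost without any 1 of the 4 GLAD libraries, where the difference ran between -0.24 and -0.22, and the double call without double normoxia A or double hypoxia B, where it ran between -0.39 and -0.18.

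Psmd8, another lid subunit, had the largest average rise. It had 142 and 150.01 CPM in GLAD hypoxia against 134 and 130.3 CPM in GLAD normoxia. It had 199 and 191 CPM in TIN hypoxia against 134 and 138 CPM in TIN normoxia, and 174 and 187 CPM in double hypoxia against 121 and 130.3 CPM in double normoxia. Hypoxia libraries were above normoxia libraries in every mutant. The log2 difference was 0.40 (standard error 0.05, adjusted p = 1.7e-06) on average, with 0.52 (adjusted p = 7.8e-05) in TIN, 0.52 (adjusted p = 6.1e-05) in the double mutant and 0.14 (adjusted p = 0.205) in GLAD. The effect was above that of GLAD by 0.38 (adjusted p = 0.0267) in TIN and by 0.38 (adjusted p = 0.0483) in the double mutant. The first of these calls was lost without any 1 of 7 libraries (GLAD normoxia A or B, TIN normoxia A or B, GLAD hypoxia A, TIN hypoxia A or B; between 0.34 and 0.42) and the second without any 1 of the 12 mutant libraries (between 0.33 and 0.44). Psmd12, a structural lid subunit, rose in the double mutant, with 91.9 and 94.1 CPM in hypoxia against 74.1 and 78.3 CPM in normoxia and a difference of 0.29 (adjusted p = 0.00218). In TIN and GLAD it had 97.1 and 96.7 CPM and 77.6 and 74.9 CPM in hypoxia against 102 and 107 CPM and 79.9 and 78.2 CPM in normoxia, neither of them called.

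The promoters of a strongly falling alpha subunit gene, of a catalytic beta subunit gene and of the rising lid gene are shown for comparison, as RefSeq gives them for GRCm38.p6, from 250 bases before to 50 bases after the start of the gene, on its own strand. Capitals mark matches on either strand to TGACNNNGC, the core of the element bound by NRF1 and related factors, to ACGTG and GCGTG, the forms of the hypoxia response core, or to CCAAT; none of the marked matches overlap. The windows are chr3:108256676-108256975 on the plus strand for Psma5, chr14:54617946-54618245 on the minus strand for Psmb5, and chr7:29180624-29180923 on the minus strand for Psmd8.
Psma5: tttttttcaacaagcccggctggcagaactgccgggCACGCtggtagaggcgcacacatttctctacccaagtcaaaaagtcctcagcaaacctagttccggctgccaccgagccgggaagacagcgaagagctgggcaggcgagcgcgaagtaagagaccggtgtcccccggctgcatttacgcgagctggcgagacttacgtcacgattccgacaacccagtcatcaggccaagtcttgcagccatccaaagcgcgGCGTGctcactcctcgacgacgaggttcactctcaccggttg
Psmb5: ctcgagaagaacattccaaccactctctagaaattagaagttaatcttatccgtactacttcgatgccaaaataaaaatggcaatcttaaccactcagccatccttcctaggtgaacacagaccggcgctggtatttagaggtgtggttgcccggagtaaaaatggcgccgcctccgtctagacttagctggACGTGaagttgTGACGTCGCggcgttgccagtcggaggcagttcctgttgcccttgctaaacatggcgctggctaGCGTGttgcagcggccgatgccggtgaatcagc
Psmd8: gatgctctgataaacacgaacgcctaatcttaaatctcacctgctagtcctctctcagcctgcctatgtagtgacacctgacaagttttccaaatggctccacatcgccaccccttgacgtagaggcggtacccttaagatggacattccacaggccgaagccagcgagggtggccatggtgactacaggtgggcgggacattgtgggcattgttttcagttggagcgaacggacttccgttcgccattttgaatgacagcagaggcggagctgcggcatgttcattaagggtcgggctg
The Psma5 window held GCGTG at 2 places, the Psmb5 window held TGACNNNGC, ACGTG and GCGTG once each, and the Psmd8 window held none of the 4. Among the 35 of 42 genes with a listed promoter, TGACNNNGC was in 6 (17.1%, against 12.5% of 27025 genes), ACGTG in 7 (20%, against 19.7%), GCGTG in 16 (45.7%, against 32.5%) and CCAAT in 14 (40%, against 37.9%). TGACNNNGC was in 5 of the 28 promoters of genes that fell on average and in 1 of the 6 promoters of the other tested genes. A match is a run of letters and shows no binding.

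All 3 assembly chaperones fell on average, and Psmd10 by most. Psmd10, which holds ATPase subunits during assembly of the base, had 20.4 and 19.2 CPM in GLAD hypoxia against 37.7 and 34.99 CPM in GLAD normoxia. It had 27.3 and 27.7 CPM in TIN hypoxia against 33.0 and 37.2 CPM in TIN normoxia, and 15.3 and 17.4 CPM in double hypoxia against 33.5 and 33.6 CPM in double normoxia. No pair overlapped, and the average log2 difference was -0.74 (standard error 0.06, adjusted p = 8.6e-09). The TIN fall of -0.35 (adjusted p = 0.0145) was lost without TIN normoxia B or either TIN hypoxia library, where it ran between -0.43 and -0.26. The effect in the double mutant was lower than in TIN by a log2 difference of -0.67 (adjusted p = 0.00237). Psmd5 and Psmd9, with the same kind of role, averaged -0.15 (adjusted p = 0.00424) and -0.16 (adjusted p = 0.00748), but in different mutants. Psmd5 fell in TIN with -0.34 (adjusted p = 0.000702), next to -0.11 (adjusted p = 0.254) in GLAD and -0.01 (adjusted p = 0.96) in the double mutant, and its effect was higher in the double mutant than in TIN by 0.34 (adjusted p = 0.0142). Psmd9 fell in GLAD by a log2 difference of -0.35 (adjusted p = 0.00207), and had 0.13 (adjusted p = 0.181) in TIN. It also fell in the double mutant (-0.26 (adjusted p = 0.0128)), a call lost without double normoxia B. The hypoxia effect on Psmd9 was higher in TIN than in GLAD by 0.48 (adjusted p = 0.00428), and lower in the double mutant than in TIN by a log2 difference of -0.39 (adjusted p = 0.0117). Psmc3ip rose by 0.15 (adjusted p = 0.0289) on average, a call lost without any 1 of 6 libraries (between 0.12 and 0.17; GLAD normoxia B, TIN normoxia A, double normoxia A or B, GLAD hypoxia A, TIN hypoxia B).

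Of the 5 activator genes, 4 held the largest differences in hypoxia effect between TIN and each of the other mutants. Psme1 and Psme2 encode the subunits of the ring activator that interferon induces. Psme1 had 87.1 and 89.6 CPM in GLAD hypoxia against 126 and 142 CPM in GLAD normoxia, and 82.7 and 86.8 CPM in double hypoxia against 152 and 174 CPM in double normoxia. In TIN it had 72.3 and 69.7 CPM in hypoxia against 55.8 and 59.4 CPM in normoxia. Thus both hypoxia libraries were lower in GLAD and in the double mutant and higher in TIN. The log2 differences were -0.59 (adjusted p = 0.000317) in GLAD, -0.94 (adjusted p = 1.4e-06) in the double mutant and 0.30 (adjusted p = 0.0344) in TIN, the last lost without any 1 of the 4 TIN libraries (between 0.25 and 0.34). The hypoxia effect in TIN was above that in GLAD by 0.89 (standard error 0.16, adjusted p = 0.000464), and that in the double mutant was lower than in TIN by a log2 difference of -1.24 (standard error 0.16, adjusted p = 1.2e-05).

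Psme2 had 71.8 and 71.2 CPM in GLAD hypoxia against 153 and 143 CPM in GLAD normoxia, and 55.6 and 73.2 CPM in double hypoxia against 130.3 and 134 CPM in double normoxia. In TIN it had 61.2 and 58.5 CPM in hypoxia against 57.9 and 67.6 CPM in normoxia. The TIN libraries overlapped at a low level and the others fell without overlap. The log2 differences were -1.04 (adjusted p = 5.2e-07) in GLAD, -0.06 (adjusted p = 0.662) in TIN and -1.04 (adjusted p = 2.9e-07) in the double mutant. The effect in TIN was above that in GLAD by 0.98 (adjusted p = 0.000185), and that in the double mutant was lower than in TIN by a log2 difference of -0.98 (adjusted p = 0.0001). Psme2b is a near-identical copy of Psme2, so reads may be split between them and its values are uncertain. Its hypoxia differences were -1.03, -0.16 and -1.04 in GLAD, TIN and double.

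Psme3 and Psme4 encode activators found mainly in the nucleus. Psme4 had 72.1 and 77.0 CPM in TIN hypoxia against 144 and 140.1 CPM in TIN normoxia. It had 75.8 and 73.0 CPM in GLAD hypoxia against 88.6 and 74.9 CPM in GLAD normoxia, and 89.4 and 91.1 CPM in double hypoxia against 98.5 and 98.8 CPM in double normoxia. TIN normoxia stood well above every other mutant group, and GLAD hypoxia and normoxia overlapped. The differences were -0.93 (adjusted p = 1.4e-07) in TIN, -0.13 (adjusted p = 0.258) in GLAD and -0.13 (adjusted p = 0.25) in the double mutant. The effect in TIN was lower than in GLAD by a log2 difference of -0.80 (standard error 0.13, adjusted p = 0.000188), the only one of the 40 genes with a call in that direction. Psme3 had 109 and 102 CPM in double hypoxia against 87.4 and 86.1 CPM in double normoxia. It had 86.5 and 91.7 CPM in GLAD hypoxia against 93.4 and 94.0 CPM in GLAD normoxia, and 103 and 108 CPM in TIN hypoxia against 119 and 121 CPM in TIN normoxia. It rose by 0.28 (adjusted p = 0.00246) in the double mutant, had -0.07 (adjusted p = 0.428) in GLAD and fell in TIN with -0.18 (adjusted p = 0.0359), a call lost without GLAD normoxia A or any 1 of the 4 TIN libraries (between -0.22 and -0.15).

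**Figure D4:**
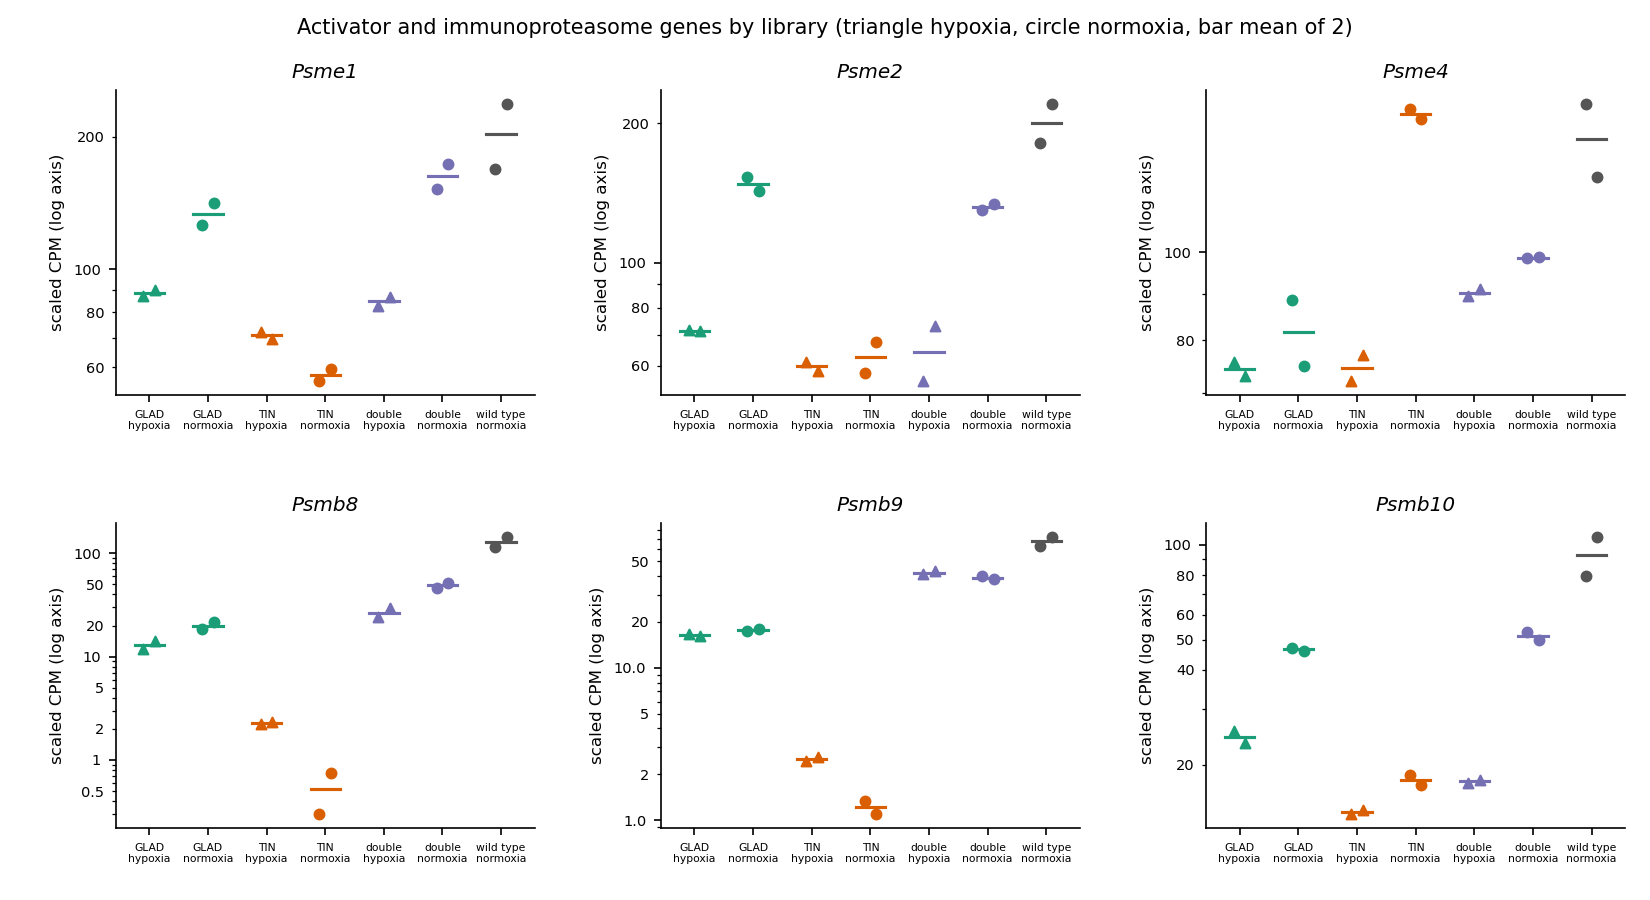
Scaled CPM, on log axes, of 3 activator genes and the 3 immunoproteasome catalytic genes in each library (triangles hypoxia, circles normoxia, bars the mean of 2). Psme1, Psmb8 and Psmb9 are lowest in TIN normoxia, and Psmb10 in TIN hypoxia; Psme4 is high in TIN normoxia and wild type.

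The differences in hypoxia effect between mutants were tested over all genes. Between TIN and GLAD the effect was higher in TIN for 18 of 40 proteasome genes (16.3% of all genes) and lower for 1 (17.5% of all genes), with a median log2 difference of 0.32 against 0.02 for all genes. The 18 comprised 2 alpha and 5 beta core genes, 4 ATPases, 2 lid genes, 2 chaperones and 3 activators. This count fell to 10 without TIN normoxia A, and the count of lower effects was 3 without either wild-type library. Between the double mutant and GLAD 5 genes had a higher effect in the double mutant (6.93% of all genes) and 0 a lower one (7.6% of all genes; limma with adjusted p, 1 at an unadjusted p under 0.05). That count of 5 was 1 to 3 without any 1 of 10 mutant libraries (GLAD normoxia A or B, double normoxia A or B, GLAD hypoxia A or B, TIN hypoxia A or B, double hypoxia A or B), and the count of 0 was 1 without either wild-type library. Between the double mutant and TIN 10 effects were lower in the double mutant (21.3% of all genes) and 5 higher (21.5% of all genes), and 16 were lower without either wild-type library. The 3 tests share groups, so they are not independent.

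Transcript length moves with the differences in hypoxia effect between TIN and the other mutants. Over 16164 genes the Spearman correlation of the TIN minus GLAD difference with transcript length was -0.33, and -0.21 for the hypoxia difference in TIN. It was 0.26 for the double mutant minus TIN, and 0.18 for GLAD and 0.18 for the double mutant against wild type in normoxia. These are descriptions across genes, which are not independent. The tested proteasome genes had a median transcript length of 1851 bases against 3003 for all genes. With the trends with length and GC content removed, 13 in place of 18 effects were higher in TIN than in GLAD and the median log2 difference over the 40 genes was 0.16 in place of 0.32. In TIN hypoxia 26 in place of 18 genes fell, and the median was -0.29 in place of -0.17. Between the double mutant and TIN 7 in place of 10 effects were lower in the double mutant and 6 in place of 5 higher. The median of that difference was -0.02 in place of -0.17, next to 0.003 over all genes.

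In normoxia, the comparisons of the 3 mutants with wild type share the same 2 wild-type libraries, and are given side by side. In the GLAD mutant 29 of 40 genes were lower than in wild type (28.6% of all genes) and 2 higher (26.6% of all genes). In the TIN mutant 16 were lower (28.9% of all genes) and 8 higher (31.3% of all genes). In the double mutant 34 were lower (28.3% of all genes) and 3 higher (28.4% of all genes). These shares over all genes also belong beside the counts by role against wild type below. The median log2 differences were -0.38, -0.06 and -0.49, against -0.02, 0.02 and -0.01 over all genes. These medians were -0.52 in GLAD, -0.19 in TIN and -0.63 in the double mutant without wild type A, and -0.29, 0.01 and -0.35 without wild type B, so the sign in TIN rests on that library. Without 1 library the lower counts ran 24 to 34 in GLAD and 31 to 35 in the double mutant. In TIN they were 10 without TIN normoxia A or wild type B, and the higher count was 5 without TIN normoxia B and 13 without wild type B. The higher count was 1 in GLAD without GLAD normoxia A or wild type A, and 1 in the double mutant without either double normoxia library. The TIN split also depended on scaling: it was 11 higher and 13 lower without TMM, 11 and 12 with upper-quartile scaling, and 12 and 12 with the length and GC trends removed.

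**Figure D5:**
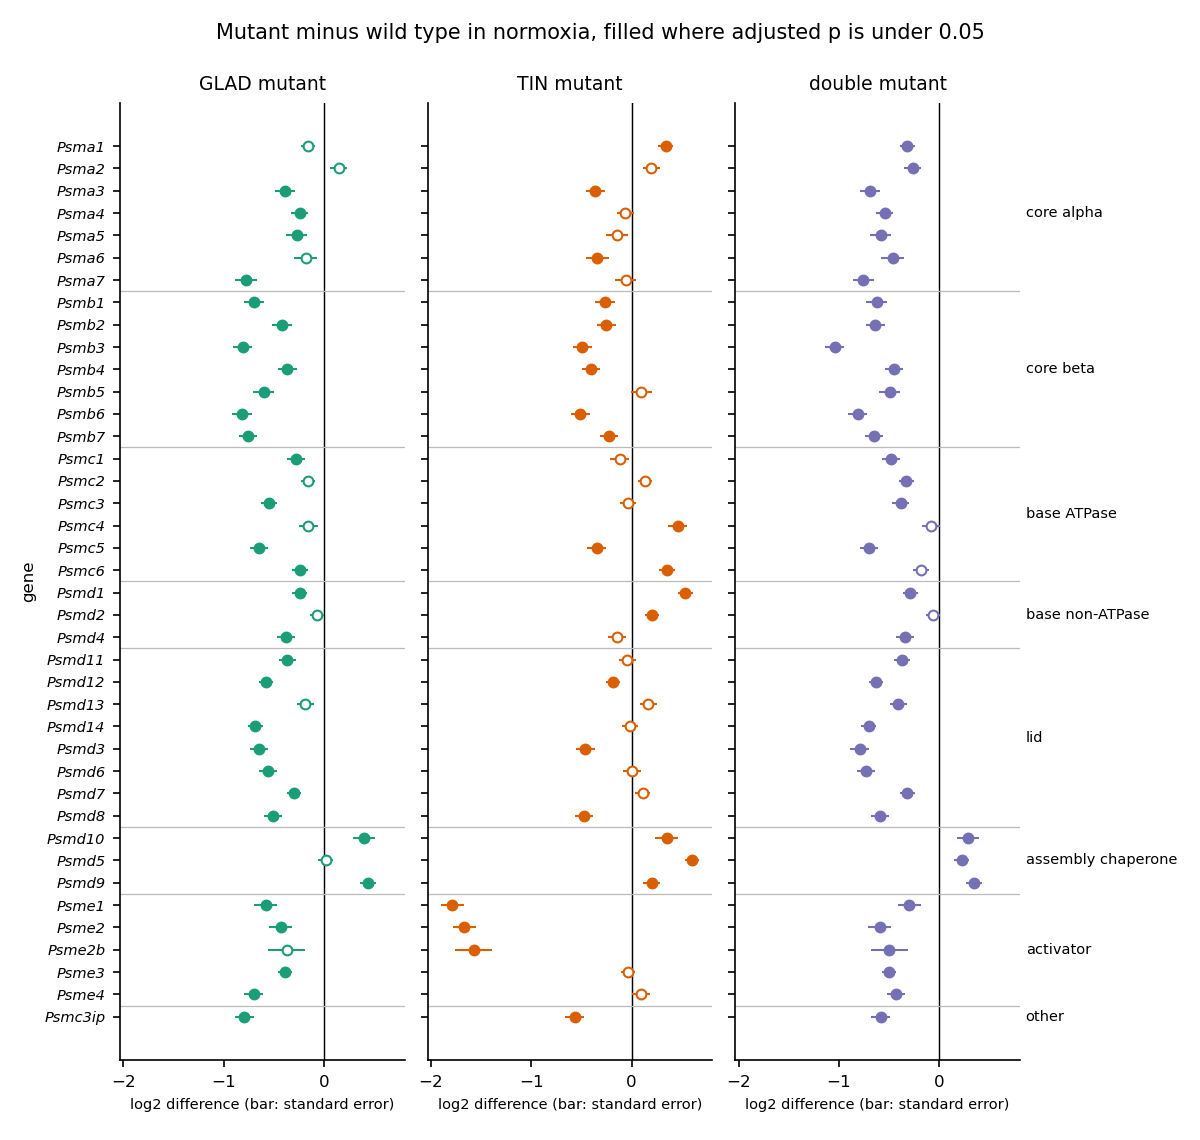
Log2 difference, mutant minus wild type in normoxia, of each tested proteasome gene, with its standard error; filled points have an adjusted p under 0.05. Core beta genes lie left of 0 in GLAD and the double mutant, the chaperone genes Psmd5, Psmd9 and Psmd10 lie right of 0 in all 3 (Psmd5 in GLAD by 0.02), and Psme1, Psme2 and Psme2b lie farthest left in TIN.

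The beta core genes were the most uniform: 7 of 7 were lower in GLAD (median -0.70), 6 of 7 in TIN (median -0.26) and 7 of 7 in the double mutant (median -0.64). Psmb3 had the widest gap in the double mutant. It had 75.8 and 76.1 CPM in double normoxia, 87.7 and 90.5 CPM in GLAD normoxia and 109.5 and 113 CPM in TIN normoxia, against 138 and 178 CPM in wild type. All 6 mutant libraries were below wild type, with log2 differences of -1.04 (standard error 0.09, adjusted p = 3.4e-08) in the double mutant, -0.81 (adjusted p = 1.1e-06) in GLAD and -0.49 (adjusted p = 0.000208) in TIN. Psmb6, with the values above, had 194 and 249 CPM in wild type, and was lower by -0.82 in GLAD, -0.51 in TIN and -0.81 in the double mutant. Psmb7 had 173 and 213 CPM in wild type, and differed by -0.76 (adjusted p = 1.2e-06) in GLAD and -0.65 (adjusted p = 6.2e-06) in the double mutant; the TIN difference of -0.23 (adjusted p = 0.035) was lost without TIN normoxia A or B or wild type B (between -0.37 and -0.08). Psmb5 was the exception in TIN: it had 74.4 and 91.9 CPM in wild type, overlapping TIN normoxia, with a difference of 0.09 (adjusted p = 0.454) there. Its differences were -0.60 in GLAD and -0.49 in the double mutant, both called.

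The alpha core and base genes varied more. Of the 7 tested alpha genes 4 were lower in GLAD, 2 in TIN and 7 in the double mutant, and 1, Psma1, was higher in TIN. Psma7 had 144 and 183 CPM in wild type, with differences of -0.78 (adjusted p = 8.2e-06) in GLAD, -0.06 (adjusted p = 0.66) in TIN and -0.76 (adjusted p = 9.3e-06) in the double mutant. Psma5 had 124 and 140.0 CPM in wild type and was lower in the double mutant by a log2 difference of -0.58 (adjusted p = 0.000118). Its GLAD difference of -0.27 (adjusted p = 0.0351) was lost without either GLAD normoxia library or wild type B (between -0.36 and -0.18). Of the ATPases 4 of 6 were lower in GLAD, 1 in TIN and 4 in the double mutant. Psmc1 had 150.1 and 183 CPM in wild type, and was lower in the double mutant with -0.48 (adjusted p = 0.000192); in GLAD its -0.28 (adjusted p = 0.0141) was lost without GLAD normoxia A or wild type B (between -0.42 and -0.13). Psmc4, another ATPase, was higher in TIN, with 149 and 152 CPM in TIN normoxia against 97.9 and 123 CPM in wild type (0.46 (adjusted p = 0.000249)). Psmd1 was also higher there, at the TIN values above against 237 and 249 CPM in wild type (0.54 (adjusted p = 5.0e-06)). Psmd4 had 179 and 226 CPM in wild type and was lower in GLAD with -0.38 (adjusted p = 0.00158); the double mutant's -0.34 (adjusted p = 0.00324) was lost without wild type B (between -0.51 and -0.18).

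Lid genes were lower than in wild type for 7 of 8 in GLAD, 3 of 8 in TIN and 8 of 8 in the double mutant. Psmd14 had 118 and 120.5 CPM in wild type, above all GLAD and double normoxia libraries and overlapping TIN normoxia. Its log2 differences were -0.68 (adjusted p = 7.5e-07) in GLAD, -0.01 (adjusted p = 0.881) in TIN and -0.70 (adjusted p = 4.2e-07) in the double mutant. Psmd3, a structural lid subunit, had 161 and 156 CPM in double normoxia against 247 and 308 CPM in wild type, the largest lid gap (-0.79 (adjusted p = 7.8e-07)). Psmd11 had 127 and 138 CPM in wild type and differences of -0.37 in GLAD and -0.37 in the double mutant, both called, and -0.04 in TIN. Psmd8 had 168 and 211 CPM in wild type, and was lower in every mutant in normoxia, by -0.51 in GLAD, -0.47 in TIN and -0.59 in the double mutant.

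The assembly chaperones stood on the other side of wild type. Psmd9, with 79.9 and 88.4 CPM in GLAD normoxia, 72.2 and 70.3 CPM in TIN normoxia and 77.9 and 79.9 CPM in double normoxia, had 57.4 and 66.7 CPM in wild type. All mutant libraries were above wild type, with log2 differences of 0.44 (adjusted p = 0.00022) in GLAD, 0.20 (adjusted p = 0.043) in TIN and 0.35 (adjusted p = 0.00156) in the double mutant. The TIN call was lost without any 1 of 9 libraries (TIN normoxia A or B, double normoxia A or B, GLAD hypoxia A or B, TIN hypoxia A or B, wild type A; between 0.09 and 0.31). Psmd5 had 100.2 and 99.1 CPM in TIN normoxia, 68.8 and 63.7 CPM in GLAD normoxia and 75.9 and 77.1 CPM in double normoxia, against 67.3 and 63.6 CPM in wild type. It was higher in TIN by 0.60 (standard error 0.07, adjusted p = 1.1e-06), while GLAD overlapped wild type; the double mutant's 0.22 (adjusted p = 0.0146) was lost without either double normoxia library (between 0.18 and 0.26). Psmd10 had 24.6 and 30.4 CPM in wild type, and was higher by 0.40 (adjusted p = 0.00544) in GLAD, 0.35 (adjusted p = 0.0115) in TIN and 0.29 (adjusted p = 0.0352) in the double mutant. Each of these calls was lost without 1 of its libraries in turn: GLAD normoxia A or wild type A in GLAD (between 0.25 and 0.55), TIN normoxia B or wild type A in TIN (between 0.20 and 0.50), and either double normoxia library or wild type A in the double mutant (between 0.14 and 0.44). Psmc3ip had 24.98 and 23.6 CPM in GLAD normoxia against 39.9 and 45.1 CPM in wild type (-0.79 (adjusted p = 2.1e-06)).

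The activator genes Psme1 and Psme2 were far below wild type in TIN. Psme1 had 169 and 237 CPM in wild type, and the log2 differences were -1.79 (standard error 0.11, adjusted p = 1.3e-10) in TIN, -0.58 (adjusted p = 0.000318) in GLAD and -0.30 (adjusted p = 0.0323) in the double mutant, where the libraries overlapped and the call was lost without double normoxia A or wild type B (between -0.54 and -0.06). Psme2 had 181 and 220.2 CPM in wild type, above every mutant library, with -1.67 (adjusted p = 2.9e-10) in TIN, -0.43 (adjusted p = 0.00333) in GLAD and -0.59 (adjusted p = 0.000206) in the double mutant. Psme2b differed by -1.58 (adjusted p = 7.7e-07) in TIN. Psme3 and Psme4 overlapped wild type in TIN, with 120.0 and 126 CPM and 146 and 121 CPM in wild type. In GLAD and the double mutant Psme3 was lower by -0.39 and -0.50, and Psme4 by -0.70 and -0.43, all called.

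The immunoproteasome genes, which the name rule leaves out, are induced by interferon as Psme1 and Psme2 are. Psmb8, a catalytic subunit, had 0.299 and 0.747 CPM in TIN normoxia, 18.4 and 21.4 CPM in GLAD normoxia and 46.5 and 51.9 CPM in double normoxia, against 114 and 144 CPM in wild type. Psmb9 had 1.35 and 1.0952 CPM in TIN normoxia and Psmb10 18.5 and 17.2 CPM, against 62.9 and 72.4 CPM and 79.6 and 106 CPM in wild type. All 3 were lower than wild type in each mutant, in TIN by log2 differences of -7.01, -5.31 and -2.33 for Psmb8, Psmb9 and Psmb10. Psmb8 in TIN normoxia was near the level of 3 reads, and its difference moved with the pseudocount, to -7.79 with 0.1 and -5.70 with 2. In TIN hypoxia Psmb8 had 2.21 and 2.31 CPM and Psmb9 2.46 and 2.61 CPM, both higher than in TIN normoxia (1.47 (adjusted p = 2.1e-06) and 0.82 (adjusted p = 1.6e-05)), as Psme1 was. With pseudocounts of 0.1 and 2 the first was 2.02 and 0.76, and the second 1.00 and 0.49. Psmb10 was lower, with 13.9 and 14.4 CPM in TIN hypoxia against the TIN normoxia values above (-0.33 (adjusted p = 0.0217)), a call lost without TIN normoxia A or either TIN hypoxia library (between -0.35 and -0.27). In the double mutant Psmb8 and Psmb10 fell in hypoxia, by log2 differences of -0.87 and -1.51. Psmb9 was not called there, with 41.0 and 43.0 CPM in double hypoxia against 39.8 and 38.2 CPM in double normoxia. In GLAD hypoxia 2 of the 3 genes also fell (26.1% of all genes). Psmb8 had 11.8 and 14.3 CPM in GLAD hypoxia. Psmb10 had 25.5 and 23.5 CPM in GLAD hypoxia against 47.0 and 45.9 CPM in GLAD normoxia. A list of 10 antigen presentation and interferon genes, such as Tap1, H2-K1 and Nlrc5, was lower in TIN than in wild type for 10 of 10 (28.9% of all genes; median -2.92), also when either wild-type library was left out. In GLAD 7 were lower and 1 higher (28.6% and 26.6% of all genes; median -0.82), and in the double mutant 5 were lower and 4 higher (28.3% and 28.4% of all genes; median -0.03). In hypoxia 8 of the 10 rose in TIN (25.5% of all genes, median 0.47). In GLAD 2 rose and 6 fell (21.9% and 26.1% of all genes). In the double mutant 2 rose and 5 fell (25.8% and 30.2% of all genes).

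Of the 7 tested fibroblast markers, 7 were lower in TIN than in wild type (28.9% of all genes; 6 when either wild-type library was left out), 5 were lower and 1 higher in GLAD (28.6% and 26.6% of all genes), and 5 were lower and 2 higher in the double mutant (28.3% and 28.4% of all genes). Lum, an extracellular matrix proteoglycan, was higher in both GLAD and double normoxia, with 29.4 and 28.4 CPM in GLAD normoxia, 29.5 and 28.0 CPM in double normoxia and 1.20 and 1.34 CPM in TIN normoxia, against 1.72 and 1.85 CPM in wild type. The collagen gene Col3a1 was higher in the double mutant, with 1462 and 1483 CPM in double normoxia against 707 and 678 CPM in wild type. Most of the summed level is in Col1a1, Col1a2 and Vim. The sum over 8 genes was 4235 and 4395 CPM in TIN normoxia, 7016 and 7416 CPM in GLAD normoxia and 6078 and 6677 CPM in double normoxia, against 12868 and 13784 CPM in wild type. In hypoxia the sums were 3933 and 3994 CPM in TIN, 6570.3 and 7591 CPM in GLAD and 4611 and 4825 CPM in the double mutant. Their part in the proteasome differences was not tested.

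Genes that work beside the proteasome were read from lists of named genes. Of 5 tested chaperones for core assembly outside the name rule, 3 fell in hypoxia on average and 0 rose (37% and 30.4% of all genes, also the shares for the lists that follow). Psmg1, a chaperone of the alpha ring, had 11.0 and 10.9 CPM in GLAD hypoxia, 11.9 and 10.2 CPM in TIN hypoxia and 7.52 and 7.90 CPM in double hypoxia, against 28.2 and 28.0 CPM, 22.5 and 20.3 CPM and 14.7 and 14.2 CPM in normoxia of the same mutants. No pair overlapped, and its average was -1.04 (adjusted p = 6.3e-10), next to -0.80 for Psma5, the proteasome gene that fell most. The median over the 5 chaperones was only -0.13. Of these, 5 fell in GLAD, 1 in TIN and 2 in the double mutant (26.1%, 28.5% and 30.2% of all genes). Of 10 other proteins that bind the proteasome 6 fell and 2 rose, among the fallen the deubiquitinases Uchl5 (-0.45) and Usp14 (-0.35) and the adaptor Ecpas (-0.42); the 2 that rose were Psmf1 (0.38), an inhibitor of the core, and Txnl1 (0.30), a thioredoxin of the regulatory particle. Of 6 ubiquitin and E1 genes 1 fell, the E1 gene Uba1 (-0.33 (adjusted p = 8.1e-07)).

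The NRF1 list, of 8 genes for NRF1, its relative NRF2 and the proteins that process them, had 4 fallen and 1 risen in hypoxia on average, near the shares of 37% and 30.4% over all genes. Nfe2l1 itself had 263 and 272 CPM in GLAD hypoxia against 331 and 340.2 CPM in GLAD normoxia, 284 and 286 CPM in TIN hypoxia against 247 and 246 CPM in TIN normoxia, and 286 and 274 CPM in double hypoxia against 370.2 and 389 CPM in double normoxia. It was lower in hypoxia in GLAD and in the double mutant and higher in TIN, with log2 differences of -0.33 (adjusted p = 0.000466), -0.44 (adjusted p = 1.6e-05) and 0.21 (adjusted p = 0.012). The one that rose on average was Ddi2, a protease that processes NRF1 (0.16 (adjusted p = 0.00673)). Against 421 and 427 CPM in wild type, Nfe2l1 differed by -0.78 (adjusted p = 7.4e-09) in TIN, -0.34 (adjusted p = 0.000297) in GLAD and -0.16 (adjusted p = 0.0463) in the double mutant.

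Exons of 12 of the 42 genes share bases with exons of another gene, and 5 of them over 10% of their length: Psmb5 with Mir686, Psmb7 with Nek6, Psmc3ip with Mlx, Psmd13 with Sirt3 and Psmd9 with Gm26745. Whether reads were counted by strand is not given in the sources used here, so reads of overlapping genes cannot be told apart for these.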

How the data were processed

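RNA of 14 libraries in 7 groups, taken from the labels, was used. The authors deposited CPM; per the submitters' processing notes, STAR, HTSeq, GRCm38.p4 and mm10 were used, and versions and the strand setting are not given in the sources used here. Depth was estimated from the spacing of low CPM, which lay on a grid near 0.05 CPM; at most 52.0% of the low values of a library were whole multiples of the smallest step (within 0.1 of it), so no count test was made. CPM were scaled by TMM (30% of M and 5% of A values trimmed), filtered at 1 CPM in 2 libraries, and log2(CPM + 0.5) was fitted with limma 3.58.1 in R 4.3.3 by 7 group means with a trended prior (7 residual and 11.3 prior degrees of freedom). P-values were adjusted by Benjamini-Hochberg within a comparison over 16205 genes. Hypoxia was compared within mutants and between them, and mutants with wild type in normoxia. The members and all gene lists were chosen with earlier results of these data known. Per-library values are given for 12 set genes and, by comparison, for the 3 largest called rises and falls. Exceptions are Psme2b, and Psmc3ip in hypoxia, which are given by their differences only. Other pseudocounts, filters, scalings, a replicate block, fits on the compared groups only, removal of length and GC trends, and leaving out libraries were tried. Gene positions and exons are from GENCODE on GRCm38; 52403 of 52636 identifiers had a symbol.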

Additional observations from a re-analysis of the deposited data

Results flagged for a closer look

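The hypoxia effect differed between mutants for single genes, as a difference of differences tested with limma over all genes. For TIN minus GLAD, 19 proteasome genes had a called difference, among them Psmb6 with 0.59, Psme1 with 0.89, Psme2 with 0.98, Psme2b with 0.87 and Psme4 with -0.80 on the log2 scale. For double minus GLAD, 5 had one, among them Psmd1 with 0.44, Psmd14 with 0.36, Psmd8 with 0.38 and Psme3 with 0.35. For double minus TIN, 15 had one, among them Psmb6 with -0.39, Psmd12 with 0.39, Psme1 with -1.24, Psme2 with -0.98, Psme2b with -0.88, Psme3 with 0.47 and Psme4 with 0.80. Groups of 2 libraries are too small to look for a single library far from the others of its group.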

How the results depend on the processing

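Of the 20 counts of proteasome genes risen or fallen, all 20 stayed within 1.5 times their value with a pseudocount of 0.1 or 2 or without TMM. They did so too with the replicate block, under which 33 genes fell on average. The labels do not say whether A and B are paired across groups. The correlation of the A minus B differences between groups was -0.10 to 0.16, and over 0.1 in 3 of 21 pairs of groups. That cannot decide the pairing, since paired libraries need not share a strong shift. With no filter on low values 3 effects were higher in the double mutant than in GLAD. With upper-quartile scaling 5 genes rose in the double mutant in hypoxia and 2 effects were lower in TIN than in GLAD. In fits on the compared groups only, 1 gene rose in GLAD and 7 in TIN in hypoxia, the effect was higher in TIN than in GLAD for 29 and lower for 3, it was lower in the double mutant than in GLAD for 1, and against wild type 1 was higher in GLAD, 5 higher and 9 lower in TIN, and 1 higher in the double mutant. With length and GC trends removed, 1 rose in GLAD, 1 in TIN and 5 in the double mutant in hypoxia, 2 effects were lower in TIN than in GLAD and 1 lower in the double mutant than in GLAD, and 1 gene was higher in the double mutant than in wild type. Under it 4 differences with a call in either fit turned sign. Psmc3 in TIN against wild type was 0.19. Psmc5 and Psmd3 in TIN hypoxia were -0.19 and -0.20, and Psmd5 in GLAD against wild type was -0.16. Another 24 differences, called in neither fit, also turned sign. Without both wild-type libraries, a setting chosen after seeing the data, 5 rose in double hypoxia, and effects were lower for 3 in TIN than in GLAD, 1 in the double mutant than in GLAD and 16 in the double mutant than in TIN. The causes were not tested. Without 1 library, the counts that moved ran 2 to 4 risen and 11 to 23 fallen in TIN hypoxia, 3 to 5 risen in double hypoxia, 10 to 25 higher and 1 to 3 lower effects in TIN than in GLAD, 1 to 7 higher and 0 to 1 lower in the double mutant than in GLAD, 7 to 16 lower in the double mutant than in TIN, and, against wild type, 1 to 3 higher in GLAD, 5 to 13 higher and 10 to 20 lower in TIN, and 1 to 3 higher in the double mutant. A group left with 1 library is assumed to vary like the others. A count test on recovered reads was not run. With 2 libraries a group, small differences were often short of the test, and a miss does not show that levels were equal.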
